A study of Rattus norvegicus with 18 samples.

Results

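Liver after 12 weeks of diethylnitrosamine was set against normal rat liver on 6 of the 18 arrays of a time course, 3 arrays for each group. The 12-week arrays are those whose titles give 12 weeks, and the normal arrays are those whose titles give 0 h. These labels set which arrays belong to each group, and every probe set of the array was compared. The comparison was chosen with earlier results of these data known. All samples were right liver lobe of Sprague-Dawley rats with a labelled age of 12 weeks, and the other 12 arrays hold liver after 5, 8, 16 and 18 weeks of the same agent. The sources used here give neither sex nor dose nor route. Arrays of 1 group are technical replicates according to the labels, and all p-values below therefore rest on the spread among arrays alone. Untreated liver of a later age was not among the samples, so time on the agent and time alone cannot be told apart. Bulk liver was measured, so more or fewer cells of a type and more or less RNA in each cell cannot be told apart in any of the results.

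Diethylnitrosamine is a nitrosamine that cytochrome P450 enzymes, mainly in the pericentral hepatocytes, convert to a species that ethylates DNA. In rat liver repeated doses produce foci of altered hepatocytes, then nodules and carcinoma, often with bile duct proliferation and scarring. Such foci are classically found by staining for the placental glutathione transferase, encoded by Gstp1, and they carry other enzymes of the response to electrophiles, which the transcription factor NRF2 switches on. Hepatocytes in turn are known by what they make and break down: plasma proteins, bile acids, urea, lipoproteins and a set of P450 enzymes, several of them under sex-dependent control by growth hormone.

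Across the array 1586 of 13901 genes were higher at 12 weeks than in normal liver, which is 11.4% of the genes tested, and 536 were lower, which is 3.86%. Together 2122 genes passed (15.3%). Both an adjusted p under 0.05 from limma (Benjamini-Hochberg) and a change of at least 2-fold on the log2(signal + 16) scale were required. Changes are given on this log2 scale as 12 weeks over normal liver ± SE, and signals are on the scale the authors deposited, as mean ± SD where a mean is given (n = 3 arrays per group). At least 8-fold differences were found for 92 genes that were higher and 25 that were lower at 12 weeks. In 41 of the called genes the 2 groups of arrays overlapped, and in all others every 12-week array lay on the same side of every normal array. Of the genes named below with a called change, none has overlapping groups, and of those given by their array values only Gapdh has.

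The balance of rises and falls depends on how the arrays are scaled. The median signal of an array was 164.7 to 174.1 at 12 weeks and 123.2 to 130.04 in normal liver, while the summed signal was 2.32e+07 to 2.33e+07 at 12 weeks and 2.55e+07 to 2.64e+07 in normal liver. The median change of all genes was 0.16 as deposited and -0.23 after each array was centred on its median. As deposited 74.7% of the calls were higher at 12 weeks, and after centring 39.7% were, with 844 genes higher (6.07% of the genes tested) and 1283 lower (9.23%). For lists counted after centring these are the shares of all genes, and for lists counted as deposited they are 11.4% higher and 3.86% lower. Quantile normalization gave 1085 higher and 665 lower, and centring on 17 housekeeping genes, an alternative chosen after seeing the data, gave 1237 higher and 732 lower. The 17 housekeeping genes had a median change of 0.00 as deposited and of -0.38 after median centring, and none of them was called in either. Gapdh, the glycolytic enzyme often used as a loading control, had signals of 19826, 21302 and 20494 at 12 weeks, against 20104, 21833 and 19579 in normal liver. The 3'/5' ratio of the Gapdh control probe sets was 1.22 to 1.26 at 12 weeks and 1.08 to 1.19 in normal liver. That of the beta-actin control probe sets was larger, at 2.62 to 2.82 at 12 weeks and 2.15 to 2.71 in normal liver. In the plot of change against signal the genes called higher spread over dim and middling signals, while many genes called lower were bright. A change that starts or ends below a mean signal of about 94.4, the 40th percentile of all probe sets, depends on the added 16, since the authors gave no detection calls. Saturation of signals above about 14003, the 99th percentile in normal liver, was not tested.

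**Figure D1:**
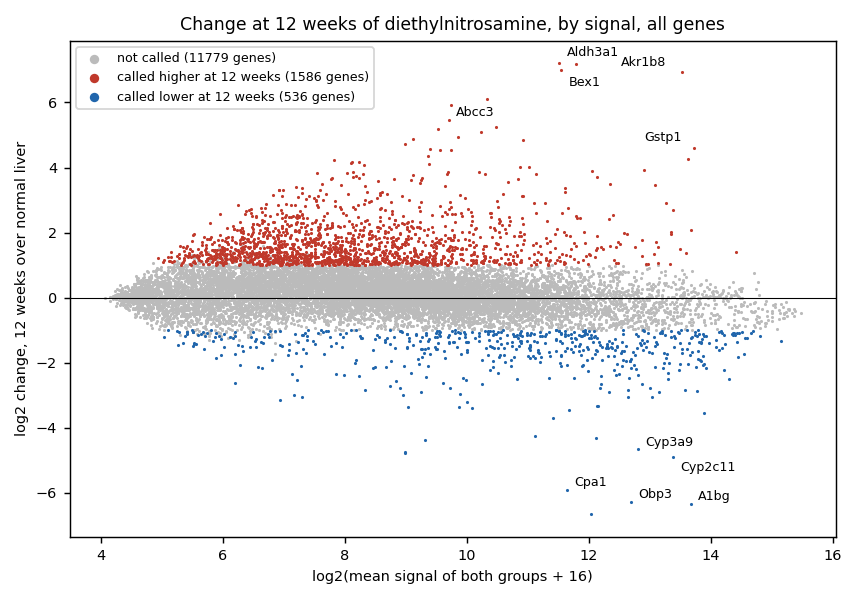
Each point is 1 of 13901 genes, with the log2 of the mean signal of both groups (plus 16) on the horizontal axis and the log2 change of 12 weeks over normal liver on the vertical axis. The 1586 genes called higher (red), as Aldh3a1 at 7.21, reach the largest changes above the line, and the 536 called lower (blue), as A1bg at -6.34, include many of the brightest genes. After median centring the counts are 844 higher and 1283 lower.

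Among genes with a settled symbol the largest rise on the log2(signal + 16) scale belonged to Aldh3a1, a cytosolic aldehyde dehydrogenase that adult liver barely makes and that rat liver tumours are known to express. Its signals were 5583, 6016 and 5788 at 12 weeks, against 45.3, 22.3 and 9.89 in normal liver, a change of 7.21 ± 0.22 (adjusted p = 7.54e-12, limma). Its normal signals were dim, and the order of the largest rises depends on the number added: with 64 in place of 16 the change was 6.04 for Aldh3a1 and 6.62 for Akr1b8. Akr1b8, an aldo-keto reductase that reduces lipid-derived aldehydes, had signals of 23077, 23707 and 23737 at 12 weeks, against 207, 133 and 193 in normal liver, a change of 6.95 ± 0.11. At 12 weeks Akr1b8 was thus among the brightest signals of the array, and in normal liver it lay not far above the median of all probe sets. Gstp1, the placental glutathione transferase itself, had signals of 25419, 26656 and 26241 at 12 weeks, against 996, 1069 and 1142 in normal liver, a change of 4.59 ± 0.066 (adjusted p = 8.85e-15, limma). For all 3 genes the groups of arrays lay far apart, and the arrays of a group differed little from each other at 12 weeks.

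Other genes with very large rises are not liver enzymes. Bex1, which encodes a small adaptor protein of the nervous system, had signals of 5818, 6143 and 5808 at 12 weeks, against 70.5, 7.84 and 31.5 in normal liver, a change of 7.01 ± 0.32, with other probe sets of the gene at 1.72 and 0.93. Ddit4l, an inhibitor of the growth kinase mTOR, changed by 6.12 ± 0.28, and Pcp4, a small calmodulin-binding protein of neurons, by 5.92 ± 0.22. Dnaaf1, needed to assemble the motors of cilia, had 2761, 2812 and 2714 at 12 weeks, against 25.5, 52.4 and 123 in normal liver. The neurofilament gene Nefl had 1063, 948 and 853 at 12 weeks, against 14.9, 8.41 and 49.4 in normal liver, and another of its probe sets changed by 3.38. Tubb6, a beta-tubulin of the cytoskeleton, had 3641, 3753 and 3779.8 at 12 weeks, against 83.1, 179.9 and 100.2 in normal liver. Its other probe set was dim and was not called (0.13). The efflux pump gene Abcc3 (5.47 ± 0.31), the mast cell protease gene Mcpt2 (5.18 ± 0.34), the beta-defensin gene Defb1 (5.09 ± 0.36), Mmd (4.93 ± 0.15), Tmem14a (4.88 ± 0.15) and Epdr1 (4.57 ± 0.23) complete the 15. In normal liver the signals of most of these genes were near or below 100, so their changes are large mainly as a gain of signal and the exact fold is not known.

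Among genes with a settled symbol the largest falls were in genes that normal liver made in quantity. A1bg, a secreted immunoglobulin-like protein that female rat liver is known to express most, had signals of 270.2, 349 and 293 at 12 weeks, against 26293, 26974 and 24289 in normal liver, a change of -6.34 ± 0.12 (adjusted p = 8.43e-14, limma). Obp3, of the odorant-binding lipocalin family made by male rat liver, had 149.7, 157 and 150.2 at 12 weeks, against 12790, 13876 and 12323 in normal liver, a change of -6.27 ± 0.13. Cyp2c11, the main testosterone hydroxylase of male rat liver, had 712, 600.3 and 734 at 12 weeks, against 21083, 21170 and 19903 in normal liver, a change of -4.90 ± 0.14. Each of these kept only a small share of its normal signal, and its groups lay far apart. The steroid-hydroxylating P450 gene Cyp3a9 had 481, 561 and 531 at 12 weeks, against 13994, 13414 and 13682 in normal liver, and Cyp1a2, a pericentral P450 that activates aromatic amines, had 2510.2, 2288 and 2324 at 12 weeks, against 28349, 29461 and 26117 in normal liver. The hydroxysteroid dehydrogenase gene Akr1c1 (-4.27 ± 0.12), the sulfotransferase gene Sult1c2a (-3.70 ± 0.21), the vasopressin receptor gene Avpr1a (-3.46 ± 0.093), Paqr9 (-3.38 ± 0.085) and the methyltransferase gene Inmt (-3.36 ± 0.20) were also among the 15. Dhrs7, a short-chain dehydrogenase, changed by -3.39 ± 0.21 in its brightest probe set, but another bright probe set gave 0.27 and was not called.

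**Figure D2:**
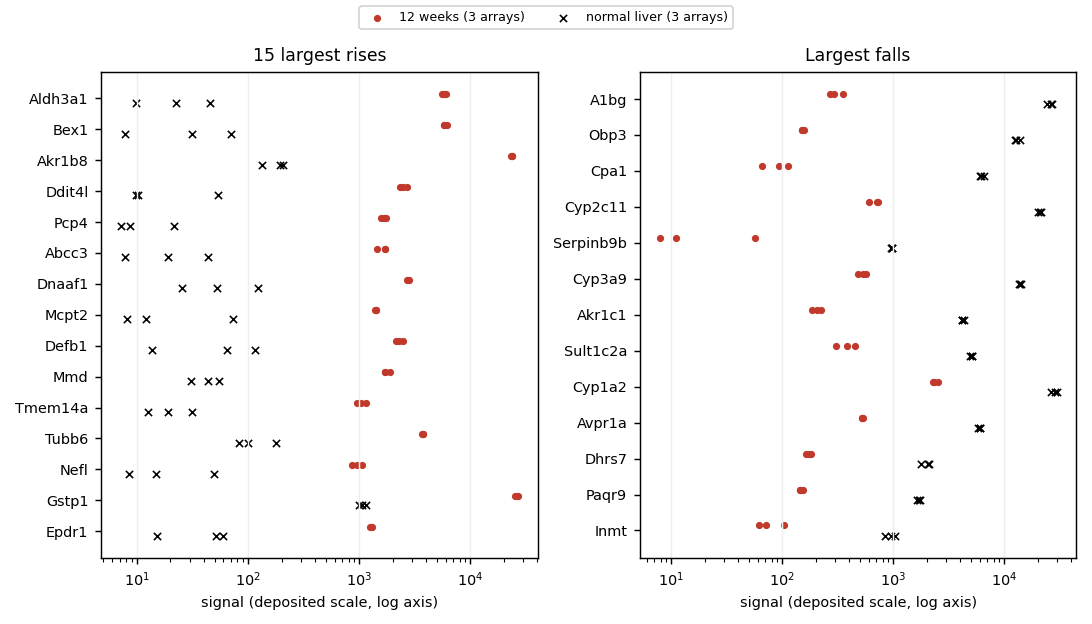
Signals of each array on a log axis for the 15 genes with the largest rise (left) and those of the 15 with the largest fall that the text names (right), with the 3 arrays of 12 weeks as red points and the 3 of normal liver as black crosses. No gene shown has overlapping groups, since the rule that chose them required this, and the normal arrays of the genes that rose scatter widely at signals that mostly lie below 100.

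Among the 15 falls was a gene known mainly from another tissue. Cpa1, a digestive carboxypeptidase gene of the pancreas, had signals of 65.9, 93.5 and 113 at 12 weeks, against 6212, 6538 and 6044 in normal liver. Its loss of signal was near complete, as was that of the serpin gene Serpinb9b, which had 7.87, 56.9 and 10.9 at 12 weeks, against 975, 963 and 944 in normal liver. For Cpa1 the change from these signals was -5.90 ± 0.34, while the mean of the authors' deposited log2 ratios was smaller, -3.23. Of 23 measured genes of exocrine pancreas 5 fell and 2 rose, beside 3.86% and 11.4% of all genes, with a median of 0.03 (-0.35 after median centring). The median depends on dim members, since only 7 of the 23 reached a mean of 200 in either group, and it was -1.13 with a filter at the 40th percentile of mean signal and -1.62 with one at a mean signal of 200. The summed signal of the list was 7442 to 7575 at 12 weeks and 24175 to 25705 in normal liver. Its defining trypsin and lipase genes were near the floor in both groups, with Prss1 at 62.8 ± 6.89 at 12 weeks and 49.04 ± 32.2 in normal liver, Pnlip at 103 ± 8.48 at 12 weeks and 57.4 ± 12.4 in normal liver and Cel at 11.1 ± 6.28 at 12 weeks and 12.8 ± 4.25 in normal liver. Amy2a3, an amylase gene, had 5508, 5682 and 5522 at 12 weeks, against 16224, 16157 and 15526 in normal liver. The pancreatic elastase gene Cela1 changed by -1.73 ± 0.20, while the chymotrypsin C gene Ctrc changed by 2.47 ± 0.14 and Reg3b, a secreted lectin, by 1.56 ± 0.26. The part of pancreatic tissue in these differences was not tested.

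Many enzymes that handle electrophiles and peroxides were higher at 12 weeks, and few were lower. Of 19 measured glutathione transferases 6 were higher and 1 lower at 12 weeks, beside 11.4% and 3.86% of all genes, with a median of 0.60. Besides Gstp1 these were led by Gstm3, with signals of 1724, 1742 and 1354 at 12 weeks, against 111, 17.2 and 65.3 in normal liver, a change of 4.52 ± 0.34. Gsta3, an alpha-class form that conjugates aflatoxin epoxide, changed by 2.53 ± 0.073, and Gstm7 (-1.77 ± 0.11) went the other way. Among 25 genes of glutathione synthesis and thiol systems 11 rose and 1 fell, with a median of 0.35 as deposited and -0.03 after centring. Gpx2, the gastrointestinal glutathione peroxidase, had 3897, 3985 and 3839 at 12 weeks, against 253, 205 and 225 in normal liver, a change of 4.01 ± 0.073. The sulfiredoxin gene Srxn1, whose product repairs oxidised peroxiredoxins, had 7900.2 ± 741 at 12 weeks and 514 ± 72.1 in normal liver (3.91 ± 0.096). Ggt1, the gamma-glutamyl transferase long used as a histochemical marker of preneoplastic foci, changed by 3.87 ± 0.15, and the secreted peroxidase gene Gpx3 by 3.64 ± 0.11. The catalytic and modifier subunits of the rate-limiting enzyme of glutathione synthesis, Gclc and Gclm, changed by 3.45 ± 0.059 and 2.70 ± 0.08, and thioredoxin reductase, Txnrd1, by 2.02 ± 0.11. Gpx1, the abundant peroxidase of normal hepatocytes, was the member that fell (-1.10 ± 0.064).

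Of 19 further genes of the NRF2 pathway 8 rose and 0 fell, with a median of 0.88. Ptgr1, which reduces unsaturated aldehydes, changed by 2.90 ± 0.054, the carbonyl reductase gene Cbr3 by 2.87 ± 0.33, Ugdh, which makes UDP-glucuronate, by 2.03 ± 0.071 and Trim16, a ubiquitin ligase, by 1.99 ± 0.33. Nqo1, the quinone reductase that is the textbook target of NRF2, changed by 1.49 ± 0.062. The NRF2 gene itself, Nfe2l2, had 5747 ± 33.8 at 12 weeks and 5049.9 ± 357 in normal liver, and the heme oxygenase gene Hmox1 had 1566 ± 38.8 at 12 weeks and 1009.8 ± 45.4 in normal liver, and neither was called. Of 10 genes that supply NADPH 4 rose and none was called lower, although the median of the list was 0.10 as deposited and -0.28 after centring. Transketolase (Tkt, 1.94 ± 0.075), transaldolase (Taldo1, 1.65 ± 0.11) and malic enzyme (Me1, 1.27 ± 0.058, with another probe set at 0.69 that was not called) were among the members called.

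Short stretches of promoter are shown for called genes of these lists, since NRF2 acts through the antioxidant response element in such regions. Each line is the strand that reads the element core TGACNNNGC, in capitals, with 16 bases on each side, from RefSeq on GRCr8, and the coordinates cover the bases shown.
Gstp1 (chr1:210769742-210769782, minus strand): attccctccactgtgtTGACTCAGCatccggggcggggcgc
Gclm (chr2:213031947-213031987, minus strand): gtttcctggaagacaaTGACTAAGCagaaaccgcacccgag
Me1 (chr8:96540387-96540427, minus strand): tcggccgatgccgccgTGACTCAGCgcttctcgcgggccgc
Gpx2 (chr6:101230022-101230062, plus strand): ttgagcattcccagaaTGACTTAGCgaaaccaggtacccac
The first base of the core lies at -61 in Gstp1, -172 in Gclm, -167 in Me1 and -13 in Gpx2, counted from the annotated start. The core, searched on both strands from 250 bases before to 50 after the start, was found in 8 of 31 promoters of detoxification genes called higher (25.8%). It was found in 15 of 55 promoters of genes of the same lists that were not called higher (27.3%), in 14.5% of the 10378 promoters of genes on the array and in 12.2% of all 27457 promoters. The share was thus near that of list members that were not called higher. In Gstp1 and Me1 the core begins with TGACTCA, the letters that also bind AP-1, so the 2 kinds of element overlap there.

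Carbonyl-reducing families split between members. Of 15 aldo-keto reductases 5 rose and 4 fell as deposited, and after median centring 4 rose and 6 fell. Akr7a3, the aflatoxin aldehyde reductase, had 23989, 24120 and 23749 at 12 weeks, against 1234, 1170.2 and 1286 in normal liver, a change of 4.27 ± 0.068. Akr1b7, another reductase of lipid aldehydes that is close in sequence to Akr1b8, fell to 2139, 2041 and 2101 at 12 weeks, against 14436, 14806 and 13815 in normal liver (-2.77 ± 0.056). Akr1c14, which reduces steroids, changed by -1.18 ± 0.087 and Akr1c3 by -1.32 ± 0.13. Within the aldehyde dehydrogenases 4 of 17 rose and 2 fell. Aldh1a1 and Aldh1a3, which make retinoic acid, changed by 1.97 ± 0.058 and 1.39 ± 0.10, while Aldh1a7, a near relative of Aldh1a1, changed by -1.49 ± 0.078 and Aldh6a1, of valine breakdown, by -1.10 ± 0.055. Of 13 conjugating enzymes 5 fell, all of them sulfotransferases, and 1 rose. Sult2a2 had 3008 ± 35.4 at 12 weeks and 17135 ± 1425 in normal liver (-2.50 ± 0.074), Sult1e1, which inactivates oestrogens, changed by -2.24 ± 0.067, Sult1c3 by -2.21 ± 0.073 and Sult1c2 by -2.77 ± 0.071. Sult2b1, the cholesterol sulfotransferase of skin, was the member that rose, from a low signal (114 ± 39.4 at 12 weeks and 12.9 ± 2.59 in normal liver).

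Cytochrome P450 genes of families 1 to 4 fell in 17 of 39 cases and rose in 3, with a median of -0.79. After Cyp2c11, Cyp3a9 and Cyp1a2, described above, the largest fall was in Cyp2a2, a steroid hydroxylase of male rat liver, with 798 ± 29.3 at 12 weeks and 8249 ± 275 in normal liver (-3.34 ± 0.061). Cyp2e1, the ethanol-inducible form that activates diethylnitrosamine, had 21006, 20470 and 20987 at 12 weeks, against 35938, 38166 and 33940 in normal liver. Its change of -0.79 ± 0.062 did not reach 2-fold as deposited, and after median centring it was called lower (-1.17). The dioxin-inducible Cyp1a1 was the member that rose most, with 664, 716 and 628 at 12 weeks, against 26.8, 49.8 and 48.1 in normal liver (3.60 ± 0.14), in contrast to Cyp1a2 of the same family. Cyp4f5 (2.11 ± 0.21) and Cyp4b1 (2.01 ± 0.095) were the others that rose. The sums of the 39 signals were 208760 to 212860 at 12 weeks and 479760 to 525570 in normal liver.

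Most of the called carriers that take compounds up from blood were lower, while several export pumps were higher. Of 27 hepatocyte uptake carriers 12 fell and 1, the phosphate carrier gene Slc17a3, rose as deposited and was not called after centring. Slc10a1, which takes bile acids up from blood, had 5819.6, 5499 and 5382 at 12 weeks, against 25052, 26944 and 23789 in normal liver, a change of -2.18 ± 0.061. The organic anion carrier gene Slco1a4 changed by -1.94 ± 0.056, the citrate carrier gene Slc13a5 by -1.95 ± 0.12 and Slc27a5, which also activates bile acids, by -2.86 ± 0.053. Among 27 ABC exporters 6 rose and 2 fell as deposited, while 3 rose and 5 fell after centring. Abcc3, the pump that returns bile acids and conjugates to blood, had 1429, 1715 and 1706 at 12 weeks, against 7.73, 18.97 and 43.3 in normal liver, a change of 5.47 ± 0.31. Abcc4 (2.16 ± 0.11) and Abcc1 (2.07 ± 0.19), which serve the same side of the cell, rose too. Abcb11, the bile salt export pump of the canaliculus, fell to 3703, 3446 and 3571 at 12 weeks, against 10862, 10521 and 10208 in normal liver (-1.56 ± 0.059), as did the peroxisomal Abcd2 (-1.21 ± 0.24).

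Bile acid synthesis fell in 8 of 15 genes with none called higher, and the median was -1.08. Cyp7a1, the rate-limiting enzyme of the pathway, had 2015, 1849 and 1876 at 12 weeks, against 9244, 8439.8 and 9355 in normal liver, a change of -2.23 ± 0.08 (adjusted p = 3.29e-11, limma). Cyp8b1, which directs synthesis to cholic acid, changed by -2.16 ± 0.057, and Acox2, which shortens the side chain in peroxisomes, by -2.89 ± 0.079. Of 32 transcription factors of hepatocytes 3 rose and 3 fell as deposited, and 2 rose and 7 fell after centring. The share that rose, 9.38%, was below that of all genes (11.4%), and the share that fell as deposited, also 9.38%, was above it (3.86%). Onecut1, a factor of early liver growth, changed by -2.48 ± 0.088 (another probe set -0.99, not called), the bile acid receptor gene Nr1h4 by -1.40 ± 0.13 and Nr5a2, which drives Cyp8b1, by -1.22 ± 0.096. Ppara, the receptor for fatty acids, rose from a low signal (152 ± 41.6 at 12 weeks and 16.1 ± 6.19 in normal liver), and Nr1i3, the xenobiotic receptor CAR, changed by 1.60 ± 0.064. Hnf4a, on which hepatocyte identity depends, had 1310.3, 1214 and 1354 at 12 weeks, against 2127, 2149 and 2139.6 in normal liver, a change of -0.72 ± 0.076 that did not reach 2-fold as deposited and was called lower after median centring (-1.10).

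Plasma proteins and general hepatocyte markers stayed bright at 12 weeks. The sums of 16 hepatocyte markers were 263270 to 275320 at 12 weeks and 384190 to 433810 in normal liver. Alb, which encodes albumin, had 30297, 33547 and 36723 at 12 weeks, against 39718, 45152 and 37639 in normal liver, and transthyretin, Ttr, had 26539 ± 1519 at 12 weeks and 35254 ± 2489 in normal liver. Neither reached 2-fold, and 3 of the 16 markers were called lower as deposited and 8 after centring: Cyp2c11, the gluconeogenic phosphatase gene G6pc1 (-2.35 ± 0.078) and the tyrosine aminotransferase gene Tat (-1.28 ± 0.075) as deposited. Of 33 acute phase and plasma protein genes 9 fell and 1 rose, and after centring 19 fell. The kallikrein inhibitor gene Serpina4 changed by -1.69 ± 0.063, Azgp1 by -1.52 ± 0.052, Itih1 by -1.41 ± 0.086 and the vitamin E carrier gene Afm by -1.41 ± 0.052. Lcn2, a siderophore-binding protein of stressed epithelia, was the member that rose (1.34 ± 0.13). Complement and coagulation genes fell in 11 and rose in 5 of 46 cases as deposited, and fell in 26 and rose in 4 after centring. As deposited the share that rose, 10.9%, was near the 11.4% of all genes, and the share that fell, 23.9%, was above 3.86%. Those that fell are made by hepatocytes, such as Mbl2, the mannose-binding lectin (-2.08 ± 0.061). The members that rose include the plasminogen activator gene Plat (2.52 ± 0.20), tissue factor F3 (2.45 ± 0.30), Plaur (1.75 ± 0.34) and Thbd (1.34 ± 0.10).

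Sex-dependent liver genes of both kinds were bright in normal liver and lower at 12 weeks. Of 12 genes known to be higher in male rat liver 10 fell, with a median of -1.99, and of 15 known to be higher in female rat liver 12 fell and 1 rose, with a median of -1.72. In the male list Mup5, a urinary protein, had 9.68 ± 8.92 at 12 weeks and 204 ± 19.2 in normal liver (-3.15 ± 0.29). In the female list the prolactin receptor gene Prlr had 798, 802 and 789 at 12 weeks, against 8205, 8271 and 8045 in normal liver (-3.33 ± 0.089), and the steroid 5-alpha-reductase gene Srd5a1 changed by -2.87 ± 0.06. Cyp2c12, the P450 form of female rat liver, had 14521, 14362 and 14302 at 12 weeks, against 33576, 36489 and 31864 in normal liver, and Cyp2c13 of male rat liver had 13988, 13642 and 13860 at 12 weeks, against 21526, 22507 and 21576 in normal liver and was called lower only after median centring (-1.04). Tox3 was the member that rose (159 ± 13.9 at 12 weeks and 22.6 ± 14.9 in normal liver), while its other probe sets were not called. The share of animals of either sex among the samples is not known from the labels, and its part in these differences was not tested.

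The growth hormone and IGF axis changed in both directions, with 6 of 26 genes higher and 6 lower, and a median of 0.26 as deposited, -0.12 after median centring. The growth hormone receptor gene Ghr had 4463, 4574 and 4550.5 at 12 weeks, against 14374, 15767 and 14005 in normal liver (-1.69 ± 0.065), and Igf1, its main target in liver, had 14139 ± 381 at 12 weeks and 29892 ± 1462 in normal liver (-1.08 ± 0.06). Cux2, a repressor that female rat liver expresses, changed by -1.50 ± 0.18. Igf2, the fetal growth factor, rose to 335, 349 and 433 at 12 weeks, against 78.3, 47.01 and 82.8 in normal liver (2.20 ± 0.44), and 2 dimmer probe sets of it were not called. The binding protein genes Igfbp5 (2.71 ± 0.11) and Igfbp7 (1.71 ± 0.085) also rose. Another probe set of Igfbp5 changed by 1.74 and was called, and dimmer ones at 0.69, 0.47 and -0.18 were not.

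Called genes of the hepatocyte's intermediary metabolism were mostly lower at 12 weeks. Cholesterol synthesis and uptake had 17 of 26 genes lower and none called higher, with a median of -1.32, against 3.86% of all genes called lower. The sterol reductase gene Tm7sf2 had 1774 ± 103 at 12 weeks and 9331 ± 313 in normal liver (-2.39 ± 0.062), Idi1, the isopentenyl isomerase, changed by -2.19 ± 0.068, the methylsterol oxidase gene Msmo1 by -2.14 ± 0.057 and Hmgcs1, which makes HMG-CoA for sterols, by -2.06 ± 0.077. Lipogenesis had 9 of 23 genes lower (14 after centring), led by the elongase gene Elovl5 (-1.82 ± 0.081), Acss2 (-1.59 ± 0.061), Elovl2 (-1.37 ± 0.09) and Gpam (-1.37 ± 0.13), and 1 higher, Lpin2 (1.07 ± 0.12), which was not called after centring. Fatty acid oxidation and ketogenesis had 13 of 34 lower. Among these Cpt1a, the gate of fatty acids into mitochondria, had 1987, 1996 and 1937 at 12 weeks, against 7513, 7688 and 7258 in normal liver (-1.91 ± 0.085). Pdk4 changed by -2.52 ± 0.17 and Acsl5 by -1.76 ± 0.066, with another bright probe set of Acsl5 at -0.20 that was not called. In peroxisomes 10 of 34 genes were lower as deposited and 17 after centring, as the glyoxylate transaminase gene Agxt (-2.46 ± 0.079), Hao2 (-1.94 ± 0.084) and Crot (-1.88 ± 0.063), while Cat, which encodes catalase, had 22753 ± 399 at 12 weeks and 25128 ± 472 in normal liver and was not called.

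Amino acid breakdown had 19 of 39 genes lower as deposited and 31 after centring, with none called higher in either and a median of -0.98 as deposited. Gnmt, which uses up methyl groups from methionine, had 3322, 3389 and 3325 at 12 weeks, against 16146, 18134 and 16346 in normal liver (-2.33 ± 0.071), and Prodh (-2.22 ± 0.12) and Aass (-2.17 ± 0.069) start the breakdown of proline and lysine. Of 17 genes of the urea cycle and ammonia 7 fell as deposited and 12 after centring, and all 17 were lower at an unadjusted p under 0.05. The ornithine aminotransferase gene Oat had 1604, 1882 and 1872 at 12 weeks, against 14635, 15063 and 15278 in normal liver (-3.06 ± 0.13), the mitochondrial carbonic anhydrase gene Car5a changed by -2.12 ± 0.18, Asl, which releases arginine, by -1.69 ± 0.065, and Nags, which makes the activator of the cycle, by -1.49 ± 0.11. Cps1 and Arg1, the first and last enzymes of the cycle, had 19658 ± 429 at 12 weeks and 26563 ± 1266 in normal liver for Cps1 and 25311 ± 609.8 at 12 weeks and 28228 ± 1457 in normal liver for Arg1, and neither was called as deposited. By liver zone, 7 of 14 pericentral genes fell, such as the glutamate carrier gene Slc1a2 (-2.98 ± 0.49), Oat and Cyp1a2, and 2, Gstm3 and Nr1i3, rose. Of 16 periportal genes 6 fell, such as G6pc1, Hal (-2.11 ± 0.076) and Apoa4 (-1.34 ± 0.063).

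In sugar metabolism some isozymes rose and others fell. Of 41 genes 8 rose and 6 fell as deposited, and 5 rose and 11 fell after centring. The genes that rose encode forms used outside the adult hepatocyte, such as Aldoc (2.16 ± 0.46), Hk1 (2.01 ± 0.14), Aldoa (1.69 ± 0.06) and Pkm (1.16 ± 0.093), together with the phosphofructokinase gene Pfkl (2.11 ± 0.13) and the mitochondrial Pck2 (2.10 ± 0.13). The genes that fell encode forms of the hepatocyte, as G6pc1, with signals of 1908, 1684 and 2085 at 12 weeks, against 9602, 9827 and 9561 in normal liver, and Gckr (-2.06 ± 0.067). Apolipoprotein and lipoprotein genes had 7 of 25 lower and 3 higher as deposited, and 14 lower and 3 higher after centring. As deposited the share higher, 12%, was near the 11.4% of all genes, and the share lower, 28%, was above 3.86%. Angptl4 (-2.65 ± 0.074), Apom (-2.06 ± 0.074) and Apoa5 (-2.05 ± 0.068) fell, and Vldlr (2.27 ± 0.14), Apod (1.79 ± 0.36) and Lpl (1.77 ± 0.085), which are known mainly from other tissues, rose.

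**Figure D3:**
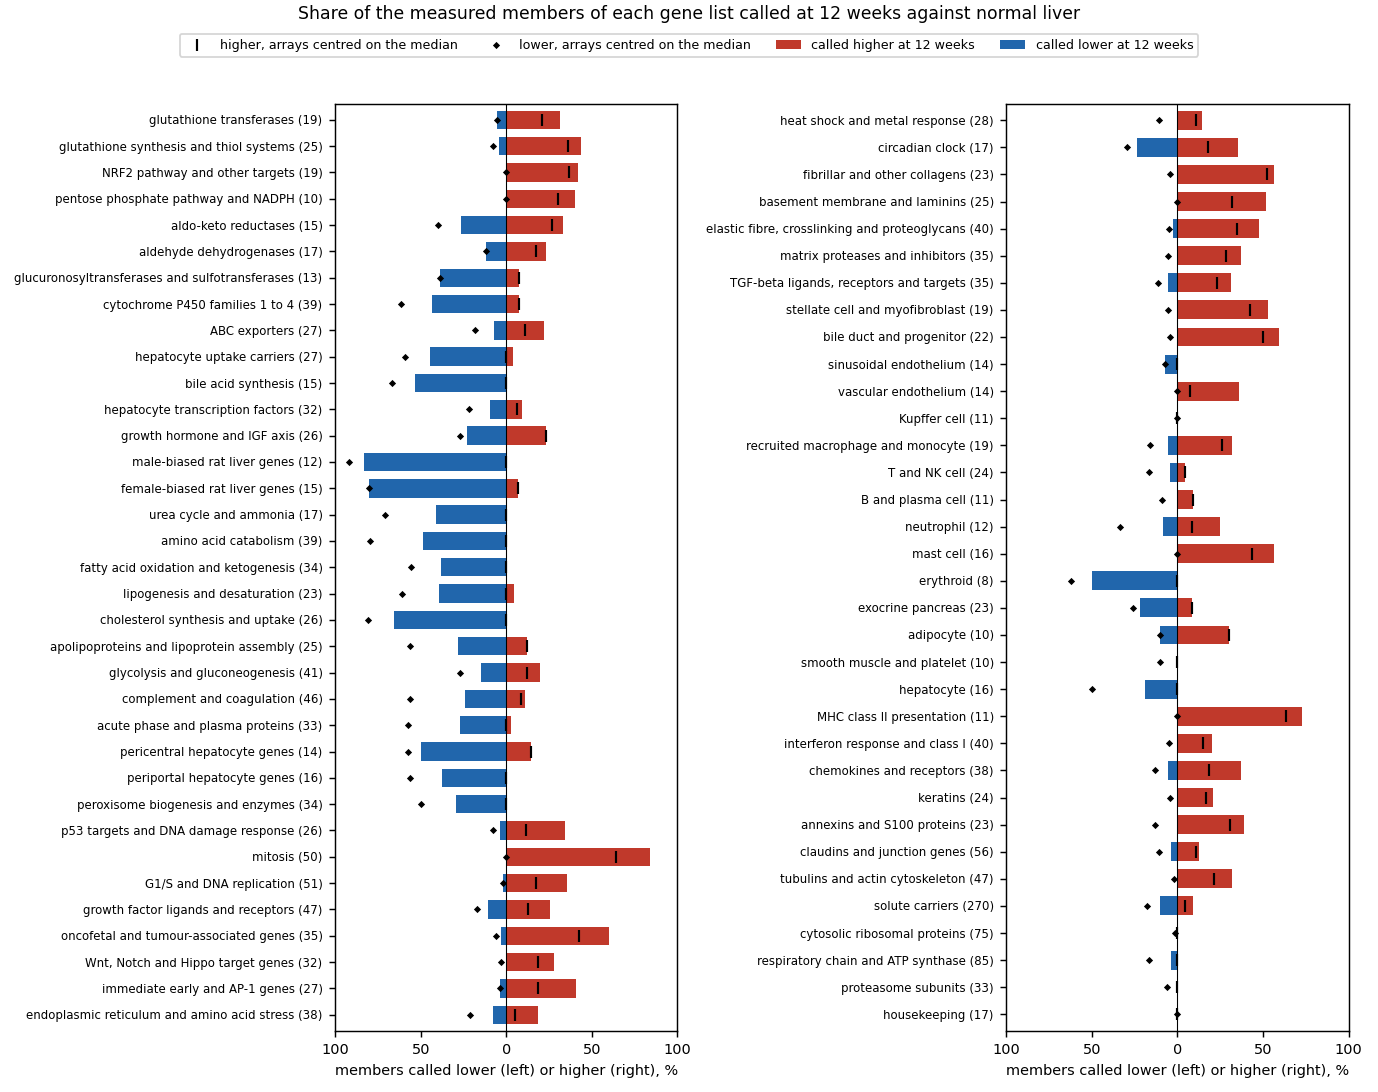
Each bar gives the percent of the measured members of a gene list (number in brackets) called higher (red, to the right) or lower (blue, to the left) at 12 weeks against normal liver, and black marks give the same after each array was centred on its median. Mitosis, with 42 of 50 members higher (32 after centring), reaches farthest to the right, and male-biased liver genes, with 10 of 12 lower (11 after centring), farthest to the left. Lists near 0 on both sides, such as ribosomal proteins, had no called member as deposited.

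Cell division genes were higher at 12 weeks than in normal liver, where most adult hepatocytes are at rest. Of 50 mitosis genes 42 rose and none was called lower, with a median of 1.71, against 11.4% of all genes called higher, and 32 rose after centring. Cdk1, the kinase that starts mitosis, had 729.9, 621 and 738 at 12 weeks, against 128, 136 and 86.8 in normal liver, a change of 2.44 ± 0.12 (adjusted p = 1.25e-09, limma). Ckap2, a spindle protein, had 469, 581 and 458 at 12 weeks, against 15.9, 21.4 and 35.4 in normal liver (3.71 ± 0.20), cyclin A2, Ccna2, changed by 2.96 ± 0.14, the kinesin gene Kif2c by 2.88 ± 0.10 and Cdca3 by 2.58 ± 0.1. Signals of this list are low, with 38 of 50 members reaching a mean of 200 in at least 1 group, so the sizes depend on the added 16. Of 51 genes of the G1/S step and replication 18 rose and 1 fell, and 9 rose after centring. Rrm2, the ribonucleotide reductase subunit, changed by 2.60 ± 0.067 and cyclin D1, Ccnd1, by 2.43 ± 0.11. The inhibitor gene Cdkn2a, which marks senescent and transformed cells, rose to 257, 221 and 167 at 12 weeks, against 3.68, 5.06 and 12.9 in normal liver (3.32 ± 0.27). Rb1, the retinoblastoma gene, was the member that fell (-1.004 ± 0.18).

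Promoters of called mitosis genes share short motifs, and a few are printed because 42 of 50 genes rose together. TTTGAA is the sequence of the cell cycle homology region, through which such genes are silenced in resting cells. Whether the matches shown act in this way was not tested. In each line TTTGAA is in capitals, with 16 bases on each side, from RefSeq on GRCr8.
Cdk1 (chr20:19265205-19265242, plus strand): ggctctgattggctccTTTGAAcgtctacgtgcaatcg
Kif23 (chr8:71320642-71320679, minus strand): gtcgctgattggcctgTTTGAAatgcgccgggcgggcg
Ccnb2 (chr8:79981680-79981717, minus strand): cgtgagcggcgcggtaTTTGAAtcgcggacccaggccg
Mki67 (chr1:199952689-199952726, minus strand): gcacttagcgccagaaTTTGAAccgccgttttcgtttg
Kif23, a kinesin of the dividing bridge, changed by 2.09 ± 0.39, cyclin B2, Ccnb2, by 1.49 ± 0.11 and Mki67, the Ki-67 antigen, by 1.96 ± 0.076. TTTGAA was found on either strand in 24 of 37 promoters of called mitosis genes (64.9%), in 5 of 7 of those not called higher (71.4%) and in 12.1% of the promoters of genes on the array. CCAAT, also searched on both strands, was found in 29 of 37 (78.4%), in 5 of 7 and in 37.8% of promoters of genes on the array. In Cdk1 the capitals start at -72 and a CCAAT on the other strand at -81, and in Kif23 they start at -79 with a CCAAT on the other strand at -88. The capitals start at -43 in Ccnb2 and at -117 in Mki67, and in no line shown do they overlap a CCAAT. Further matches, not shown, start at -16 in Cdk1, -214 in Ccnb2 and -99 in Mki67. The one at -99 in Mki67 overlaps a CCAAT on the other strand at -94. Members called higher and members not called higher held both motifs at shares above those of the array, although only 7 promoters of members not called were at hand.

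Damage response genes of the p53 network rose in 9 and fell in 1 of 26 cases as deposited, and rose in 3 and fell in 2 after centring. As deposited the share that rose, 34.6%, was above the 11.4% of all genes, and the share that fell, 3.85%, was near 3.86%. Cdkn1a, the gene of p21, which halts the cell cycle, had 2781, 3149.7 and 3022 at 12 weeks, against 176, 296 and 260.4 in normal liver, a change of 3.55 ± 0.13. It was higher still at other times, with means of 6684 at 5 weeks and 6090.2 at 8 weeks. Mdm2, the ubiquitin ligase of p53, changed by 1.49 ± 0.058, the epoxide hydrolase gene Ephx1 by 1.41 ± 0.059 and Mgmt, which removes alkyl groups from guanine, by 1.35 ± 0.056. The sestrin gene Sesn1 changed by -1.07 ± 0.12, with another bright probe set at -0.90 that was not called. Several familiar members, such as Bbc3 (0.01 ± 0.07) and Gadd45a (0.77 ± 0.097), were not called.

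Tumour-associated and fetal genes rose in 21 and fell in 1 of 35 cases, with a median of 1.19. Gpc3, the glypican used to diagnose liver cancer, had 576, 624 and 552 at 12 weeks, against 14.3, 15.4 and 32.1 in normal liver (4.07 ± 0.14). Sox4, a transcription factor of progenitor cells, had 3429, 3407 and 3741 at 12 weeks, against 198, 201 and 213 in normal liver (4.01 ± 0.059), and its other probe sets were called as well except for 1 dim one. The adhesion receptor gene Cd44 changed by 2.17 ± 0.17 and the fetal ligand gene Dlk1 by 3.39 ± 0.28. Afp, which encodes alpha-fetoprotein, had 1445, 1462 and 1401 at 12 weeks, against 899, 867 and 923 in normal liver and was not called (0.67 ± 0.071). Igf2bp3, an RNA-binding protein of fetal tissue, went the other way in all of its 3 probe sets (-1.69 ± 0.15 in the brightest). Of 47 growth factor ligands and receptors 12 rose and 5 fell as deposited, and 6 rose and 8 fell after centring. Pleiotrophin, Ptn (2.78 ± 0.14), Kitlg (2.22 ± 0.13), Nrg1 (2.16 ± 0.14) and Pdgfa (2.06 ± 0.18) are ligands that rose. Egfr, the EGF receptor of hepatocytes, had 1163, 1131 and 1195 at 12 weeks, against 4640.4, 4732 and 4815 in normal liver (-2.01 ± 0.069), with another bright probe set at -0.08, and its ligand Egf changed by -1.57 ± 0.077.

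Signalling genes of other pathways rose in part. Of 27 immediate early genes 11 rose and 1 fell, and 5 rose after centring. Myc had 897, 789 and 709 at 12 weeks, against 164, 144 and 139 in normal liver (2.30 ± 0.14), the stress factor gene Atf3 changed by 2.22 ± 0.32, Fos by 2.11 ± 0.15 and Jund by 1.91 ± 0.14, while the phosphatase gene Dusp1 fell by 1.52 on the log2 scale. Other probe sets of Jund were dim and were not called (0.36 and 0.95). Of 32 genes of the Wnt, Notch and Hippo pathways 9 rose, with a list median of 0.28 as deposited and -0.10 after centring. They include Wnt4 (2.51 ± 0.47), the YAP target Ccn2 (2.50 ± 0.12), the Notch ligand Jag1 (1.97 ± 0.41) and Fzd2 (1.83 ± 0.27), while Axin2, a general Wnt target, had 379 ± 18.5 at 12 weeks and 325 ± 21.1 in normal liver and was not called. Among 38 genes of endoplasmic reticulum and amino acid stress 7 rose (18.4%) and 3 fell (7.89%) as deposited, beside 11.4% and 3.86% of all genes. After centring 2 rose and 8 fell. Slc7a11, which imports cystine for glutathione, had 1155, 1106 and 1000 at 12 weeks, against 105, 49.2 and 95.5 in normal liver (3.52 ± 0.19), and Phgdh, which opens serine synthesis, had 563, 593 and 564 at 12 weeks, against 32.2, 47.3 and 36.5 in normal liver (3.44 ± 0.16). The chaperone gene Hspa5, the usual sign of unfolded protein, had 15967 ± 384 at 12 weeks and 18478 ± 306 in normal liver and was not called, and the folding enzyme gene Pdia4 changed by -1.50 ± 0.092.

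Genes of scar and matrix were higher at 12 weeks. Of 23 collagen genes 13 rose and none was called lower as deposited (1 after centring), with a median of 1.49. Col1a1, the main chain of scar collagen, had 2299.8, 2229.7 and 2446 at 12 weeks, against 155, 139.9 and 158 in normal liver (3.81 ± 0.095, with another probe set at 2.44), Col1a2 changed by 2.47 ± 0.12, Col6a2 by 2.37 ± 0.13 and Col6a3 by 2.33 ± 0.14, with another probe set at 0.86 that was not called. Col3a1, with the brightest signal of the list, had 10340 ± 150 at 12 weeks and 3534 ± 60.7 in normal liver (1.54 ± 0.054). Basement membrane genes rose in 13 of 25 cases as deposited and 8 after centring, with the laminin chain Lama5 (438, 539 and 549 at 12 weeks, against 6.62, 17.4 and 16.4 in normal liver), the collagen receptor gene Ddr1 (2.93 ± 0.086) and Nid1 (1.86 ± 0.11, with another bright probe set at 0.44 that was not called). The change of Lama5 was 4.17 ± 0.14, and its other probe sets were dim and not called. Elastic fibre, crosslinking and proteoglycan genes rose in 19 and fell in 1 of 40 cases, led by Mfap4 (3.68 ± 0.11), Loxl1, which crosslinks elastin (3.46 ± 0.23), Fbln1 (3.11 ± 0.34) and decorin, Dcn (2.46 ± 0.07). Sdc2, the heparan sulfate proteoglycan of hepatocytes, was the member that fell (-1.06 ± 0.055), with other bright probe sets at -0.80, not called, and -1.44, called. Fibronectin, Fn1, had 13169 ± 559 at 12 weeks and 21115 ± 1341 in normal liver, which was called lower only after median centring (-1.06). Of 35 matrix proteases and inhibitors 13 rose (10 after centring, when 2 fell), as the metalloprotease genes Adam8 (1239, 1262 and 1235 at 12 weeks, against 70.8, 71.7 and 36.9 in normal liver) and Mmp12 (3.76 ± 0.25). The change of Adam8 was 4.09 ± 0.15, and its mean was higher at 5 weeks (2597) and 8 weeks (2863).

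Of 35 TGF-beta genes 11 rose and 2 fell, and after centring 8 rose and 4 fell. Tgfb1, the main profibrotic cytokine, had 500.2, 510.5 and 497 at 12 weeks, against 11.8, 8.11 and 20.9 in normal liver (4.15 ± 0.16), and Bmp4 changed by 2.19 ± 0.41. The activin subunit genes Inhbc (-2.03 ± 0.14) and Inhbe (-1.76 ± 0.079), which are made by hepatocytes, were those that fell. Markers of stellate cells and myofibroblasts, which make most of the scar matrix in liver, rose in 10 of 19 cases with none called lower as deposited and 1 after centring. Acta2, the smooth muscle actin of myofibroblasts, had 649, 579.6 and 652 at 12 weeks, against 190, 143 and 115 in normal liver (1.98 ± 0.17), Tagln changed by 2.75 ± 0.34 and Lum by 1.86 ± 0.1. Markers of resting stellate cells were not called, with Lrat at 833 ± 38.2 at 12 weeks and 670.1 ± 54.8 in normal liver and Reln at 1363 ± 87.2 at 12 weeks and 966 ± 55.1 in normal liver. Desmin, Des, at 289.8 ± 35.8 at 12 weeks and 139 ± 22.3 in normal liver, lay close to the threshold and was called without any of 4 single arrays, at 1.01 to 1.08. The sums of the list were 14976 to 15512 at 12 weeks and 5968 to 6261 in normal liver.

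Markers of bile duct and progenitor cells rose in 13 of 22 cases with none called lower as deposited (1 after centring), and the median was 1.44. Krt19, a keratin of bile ducts, had 1151, 991 and 1040.5 at 12 weeks, against 156, 106 and 114 in normal liver (2.94 ± 0.15). Cd24 had 1527, 1512 and 1452 at 12 weeks, against 109, 85.5 and 86.8 in normal liver (3.79 ± 0.095), the tight junction genes Cldn7 and Cldn4 changed by 3.15 ± 0.15 and 3.04 ± 0.32, the chloride channel gene Cftr by 2.61 ± 0.14 and Epcam, an adhesion protein of ducts and progenitors, by 2.46 ± 0.062. Sox9, a transcription factor of ducts, was dim in both groups (8.91 ± 5.66 at 12 weeks and 5.15 ± 3.61 in normal liver) and was not called. Of 24 keratins 5 rose, with 1 called lower after centring, and those that rose include Krt8, made by hepatocytes as well, with 13526 ± 372 at 12 weeks and 4115 ± 11.01 in normal liver (1.71 ± 0.072), beside Krt7 (2.68 ± 0.26) and Krt20 (2.55 ± 0.31). The summed signal of the bile duct list was 26534 to 27870 at 12 weeks and 19083 to 19353 in normal liver.

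Markers of some immune cell types rose, and those of others were mostly not called. Mast cell genes rose in 9 of 16 cases with none called lower. Mcpt2, a granule protease of mucosal mast cells, had 1398, 1418 and 1414 at 12 weeks, against 12.1, 8.17 and 72.8 in normal liver, and Mcpt10 had 749, 736 and 681 at 12 weeks, against 86.6, 58.9 and 54.6 in normal liver (3.18 ± 0.14). Cma1, a chymase, changed by 3.38 ± 0.45 and Mcpt1 by 3.12 ± 0.34, while Kit, the receptor that mast cells need, was dim in both groups (23.8 ± 8.10 at 12 weeks and 30.9 ± 29.3 in normal liver). The sums of the list were 7205 to 7649.5 at 12 weeks and 2351 to 2584 in normal liver. MHC class II and presentation genes rose in 8 of 11 cases, with Cd74, the invariant chain, at 20084, 22660 and 20465 at 12 weeks, against 4996, 4939.6 and 4927 in normal liver (2.08 ± 0.065), RT1-Bb at 2.42 ± 0.052, RT1-Db1 at 1.92 ± 0.079 and the regulator gene Ciita at 1.78 ± 0.28. Interferon response and class I genes rose in 8 of 40 cases (6 after centring, when 2 fell), with a list median of 0.30 as deposited and -0.09 after centring. They include Lgals3bp (2.35 ± 0.061), Oasl (1.50 ± 0.14) and the class I genes RT1-CE5 (2.71 ± 0.087) and RT1-N3 (1.58 ± 0.10), which are near copies of other class I genes, so their signals may be shared. Other bright probe sets of RT1-CE5 (0.27) and RT1-N3 (0.81) were not called.

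None of 11 Kupffer cell markers was called, since their changes, from -0.53 to 0.80, did not reach 2-fold. At an unadjusted limma p under 0.05, 5 were higher and 3 lower. Clec4f, which in rodents marks these resident macrophages, had 4962, 5043 and 4956 at 12 weeks, against 7296, 7135 and 7129.7 in normal liver. Of 19 markers of recruited macrophages and monocytes 6 rose (5 after centring, when 3 fell). Those that rose were led by Spp1 (2.64 ± 0.15), Cd9 (2.17 ± 0.12), Gpnmb (4629 ± 140 at 12 weeks and 1059.6 ± 93.9 in normal liver) and Fabp5 (1.76 ± 0.058). Spp1 is counted in the bile duct and progenitor list as well. Cd14, the lipopolysaccharide receptor, fell to 1903, 1815 and 1879 at 12 weeks, against 4977, 4593 and 4925 in normal liver (-1.36 ± 0.079). Among T and NK cell genes 1 of 24 rose, Cd28 from a low signal (53.5 ± 8.86 at 12 weeks and 4.74 ± 0.503 in normal liver), and 1 fell, the granzyme gene Gzma, with 116, 134 and 101 at 12 weeks, against 612, 532 and 559 in normal liver (-2.13 ± 0.14), while 4 fell after centring. The share higher, 4.17%, is below the 11.4% of all genes, and the share lower as deposited, also 4.17%, is near 3.86%. The defining T cell gene Cd3e had 172 ± 40.1 at 12 weeks and 166 ± 8.56 in normal liver. B cell genes had 1 of 11 higher, Blnk (1.95 ± 0.20), which as a share (9.09%) is below the 11.4% of all genes. Neutrophil genes had 3 of 12 higher (25%) and 1 lower (8.33%) as deposited, beside 11.4% and 3.86% of all genes. After centring 1 neutrophil gene was higher and 4 were lower. Erythroid genes fell in 4 of 8 cases, with the globin gene Hbb at 8881, 9021 and 8491 at 12 weeks, against 28121, 27828 and 25110 in normal liver (-1.62 ± 0.06) and its chaperone Ahsp at -2.34 ± 0.34. The sums of the erythroid list were 9202 to 9742 at 12 weeks and 26770 to 29815 in normal liver, and the part of blood left in the tissue was not tested.

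Chemokine and receptor genes rose in 14 and fell in 2 of 38 cases as deposited, and rose in 7 and fell in 5 after centring. Ccl21, which draws lymphocytes and dendritic cells to lymphatic vessels, had 1871, 1733 and 1882 at 12 weeks, against 306, 305 and 230.2 in normal liver (2.65 ± 0.10), and Cxcl6 (2.71 ± 0.31) and Cxcl16 (2.36 ± 0.099) rose as well. Cxcl12, which holds progenitor cells in their niche, had 1542, 1584 and 1509 at 12 weeks, against 11390, 11392 and 10741 in normal liver (-2.84 ± 0.062) and fell in all of its 3 probe sets. Of 14 vascular endothelial genes 5 rose as deposited (35.7%, beside 11.4% of all genes) and 1 after centring. Aplnr, the apelin receptor gene, led the rises as deposited (2.51 ± 0.41), and its other probe set was not called. Of 14 sinusoidal endothelial genes 1 fell, the VEGF receptor gene Kdr, with 1099, 1046 and 1044 at 12 weeks, against 2622, 2288 and 2734 in normal liver (-1.24 ± 0.082), and Stab2, a scavenger receptor that defines these cells, had 857 ± 41.1 at 12 weeks and 1183 ± 2.67 in normal liver and was not called. Fabp4, a fatty acid carrier of fat cells and macrophages, had 1204, 1221 and 1254 at 12 weeks, against 9.76, 113 and 51.6 in normal liver (4.35 ± 0.37), while the fat cell hormone gene Adipoq was dim in both groups (48.1 ± 9.94 at 12 weeks and 48.3 ± 16.6 in normal liver).

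**Figure D4:**
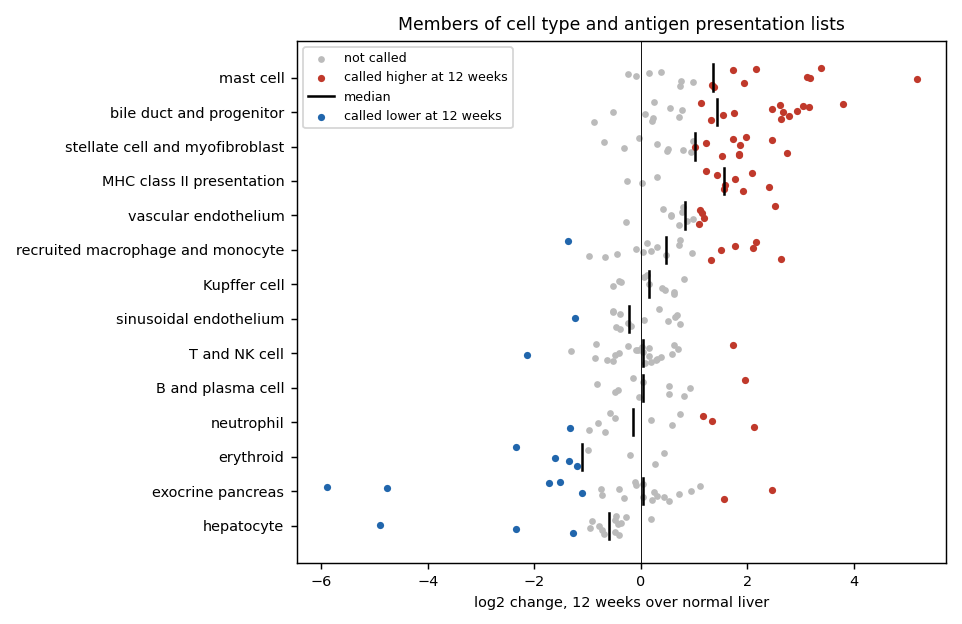
Each point is the log2 change (12 weeks over normal liver) of 1 member of a marker list, red where called higher, blue where called lower and grey where not called, and the black bar is the median of the list. The medians of the mast cell (1.35), bile duct (1.44) and MHC class II (1.57) lists lie well right of 0, while that of the Kupffer cell list (0.15) lies near it and turns to -0.24 after median centring.

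Against the other treated times, 12 weeks stood nearer to the later ones by number of genes. Of all genes 6.37% were higher and 2.61% lower at 12 weeks than at 5 weeks, and 4.65% higher and 1.61% lower than at 8 weeks. Against 16 weeks 0.547% were higher and 0.942% lower, and against 18 weeks 0.683% were higher and 0.317% lower. These comparisons share the 12-week arrays, so they are not independent. Among the genes above, Gstp1 had a mean of 1069 in normal liver, and of 3360.5, 13914, 26105, 20328 and 24170 after 5, 8, 12, 16 and 18 weeks. Cyp2c11 had 20718 in normal liver, and 21262, 14276, 682, 179 and 169 after the same times. The change of Gstp1 at 12 weeks against 16 weeks was 0.36 ± 0.066, which is under 2-fold, and against 18 weeks 0.11 ± 0.066 (adjusted p = 0.34, limma). Its signals at these 3 times lie above 14003, where saturation was not tested. Cyp2c11 was near its normal mean at 5 weeks and had lost most of it by 12 weeks. Against 8 weeks, Cyp2c11 changed by -4.36 ± 0.14, Obp3 by -4.71 ± 0.13, Abcc3 by 3.78 ± 0.31 and Aldh3a1 by 2.88 ± 0.22, all called. Of the 35 tumour-associated genes 14 were higher at 12 than at 8 weeks, and 0 lower. Of 50 mitosis genes 1 was higher and 0 were lower than at 8 weeks.

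Genes that set 12 weeks apart from every other group were few. Called in the same direction against normal liver and against each of the 4 other times were 6 genes that were higher at 12 weeks (0.0432% of all) and 4 that were lower (0.0288%). Star, which carries cholesterol into mitochondria for steroid synthesis, had 562, 665 and 791 at 12 weeks, against 71.6, 61.8 and 50.1 in normal liver. Its means after 5, 8, 16 and 18 weeks were 42.6, 18.3, 153 and 209, all below every 12-week array, and another probe set also rose (3.22). The neuronal membrane protein gene Gpm6a had 352, 369 and 369 at 12 weeks, against 135, 109 and 129 in normal liver. LOC286989, a provisional gene, had 6886, 7169 and 6887 at 12 weeks, against 18.7, 29.6 and 54.5 in normal liver, and its next highest mean was 826 at 8 weeks. Its change of 7.18 ± 0.19 from normal liver was next to that of Aldh3a1. Mx2, an interferon-induced GTPase, had 3565, 3867 and 3924 at 12 weeks, against 1407, 1610 and 1245 in normal liver, but a dimmer probe set of it was not called (-0.0026), and at 16 weeks the tested probe set had a mean of 51.9. The dim genes Pdgfrl (167 ± 48.9 at 12 weeks and 36.5 ± 23.5 in normal liver) and Glis1 (139 ± 10.8 at 12 weeks and 31.3 ± 4.33 in normal liver) were the others that were higher.

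Aldh1a7, the aldehyde dehydrogenase named above, stood farthest from the other times among those that were lower. It had 873, 937 and 835 at 12 weeks, against 2334, 2737 and 2435 in normal liver, and its means after 5, 8, 16 and 18 weeks were 3204, 7062, 9720 and 5805. The low value at 12 weeks thus lies between times at which the gene was brighter than in normal liver. Cldn1, a tight junction claudin, had 397, 347 and 354 at 12 weeks, against 1232, 1092 and 1234 in normal liver, and its other 2 probe sets were called lower than in normal liver too. Acvr1c, an activin receptor, had 82.2, 27.9 and 48.3 at 12 weeks, against 167, 228 and 163 in normal liver, and the provisional gene MGC72973 had 2182, 1987 and 1950 at 12 weeks, against 13630, 12429 and 12837 in normal liver. With a floor of 200 on the mean signal 5 genes stood apart, with a 3-fold threshold 2, and with quantile normalization or median centring 16.

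**Figure D5:**
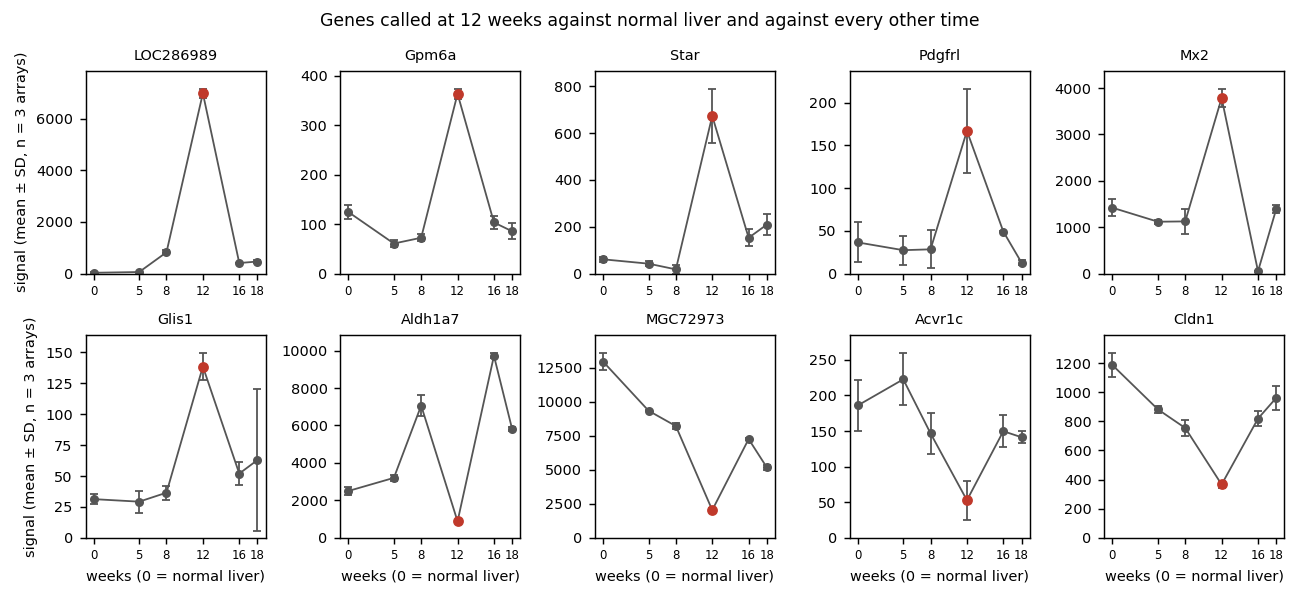
Mean signal ± SD of 3 arrays at each time (0 weeks is normal liver), on linear axes from 0, for the 10 genes that stood apart at 12 weeks, with 12 weeks in red. The first 6 panels peak at 12 weeks, as LOC286989 with 6981 against at most 826 elsewhere, and the last 4 have their lowest mean there, as Aldh1a7 with 882.

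Some calls named above depend on the settings. After median centring Me1 (0.89), Mgmt (0.97), Lcn2 (0.96), Pkm (0.78), Thbd (0.96), Slc17a3 (0.78) and Lpin2 (0.69) were under 2-fold. With quantile normalization Gpx1 (-0.63), Igf1 (-0.61), Aldh6a1 (-0.66), Sdc2 (-0.67), Cyp2c12 (-0.72), Akr1c14 (-0.74), Itih1 (-0.97), Tat (-0.98), Afm (-0.99) and Pkm (0.99) were. A pseudocount of 64 put Cd28 (0.77), Abcd2 (-0.79), Rb1 (-0.89), Apod (0.99) and Lpin2 (0.99) under 2-fold. The mean over all probe sets of a gene did so for Igf2 (0.59), Mx2 (0.70), Tox3 (0.71), Lama5 (0.94), Acsl5 (-0.98), Sesn1 (-0.98), Me1 (0.98) and Lpin2 (0.48). Rb1 lost its call without the third 12-week array (-0.77), without the second normal array (-0.94) and without the third (-0.95), and Lpin2 without the third normal array (0.98).

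Atp5if1, the inhibitor of the mitochondrial ATP synthase, fell in its brightest probe set to 4221, 4193 and 4309.6 at 12 weeks, against 15431, 15984 and 14782 in normal liver, while 3 other probe sets rose by 1.85, 1.60 and 1.78. Of the 335 genes named or set aside for naming, 93 had 134 other probe sets, of which 3 were called the other way, all of them those of Atp5if1. Of the 82 other probe sets that reach a mean of 200 in a group, 18 did not share the call of the tested one. Dimmer probe sets of Fbln1 (1.09), Kif23 (0.28), RT1-Bb (0.78), Pck2 (0.73) and Thbd (0.89) were not called either. The same holds for Srxn1 (1.14), Lpin2 (-0.12), Slc1a2 (-0.32), Prodh (-0.56) and Amy2a3 (-0.78). In the authors' deposited table of log2 ratios no called gene had the other sign.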

How the data were processed

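RNA of rat liver was hybridised to Affymetrix Rat Genome 230 2.0 arrays, from total RNA taken with Trizol and RNeasy columns and labelled as biotin cRNA, per the labels' protocols. The authors deposited 1 signal intensity per probe set and array, made with GCOS 2.0 per the submitters' processing notes. The scaling target and detection calls were not given in the sources used here. A deposited workbook gives the authors' log2 ratios of 12 weeks over 0 h, used only as a check and for probe set names. Its 0 h signals were not used, nor were 15 other columns of sample values. Its 12-week signals differed from the value table by at most 0.1.

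Of 31099 probe sets 57 controls were left out. The other 31042 were tested as log2(signal + 16) with limma 3.58.1 (R 4.3.3), lmFit and eBayes, 2-sided, over all 6 groups of 3 arrays, with Benjamini-Hochberg adjustment over all probe sets. Of these 19885 name 1 gene, 23 several and 11134 none, and symbols were updated through RefSeq tables where accession or symbol allowed. A gene was read from its probe set with the highest mean over the 18 arrays, which gave 13901 genes. Python 3.11.15 with pandas 2.3.3, numpy 2.4.6 and matplotlib 3.10.9 made counts and figures.

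In 69 gene lists 2116 of 2285 entries were on the array, for 1911 different genes, since some genes are in several lists. The arrays, lists and tests were chosen with earlier results of these data known. Named were the 15 largest rises and falls among non-overlapping genes with a mean of at least 200 and no provisional symbol, up to 4 members of a list with the largest change, up to 3 against its direction, defining members that were not called, genes apart at 12 weeks, Gapdh and Actb. Some genes that this rule takes in are not reported here. The text also names 24 genes chosen after their values were seen: Akr1c14, Aldoa, Amy2a3, Ccnb2, Cd44, Cdk1, Cftr, Col3a1, Cyp2c12, Dlk1, Epcam, Gclc, Gclm, Hk1, Igf1, Kif23, LOC286989, MGC72973, Mki67, Nqo1, Pkm, Plaur, Thbd and Txnrd1. Alternatives were other scalings, pseudocounts, filters, fold thresholds and variance models, a replicate block, the mean of all probe sets and each array left out. The number of arrays limits the precision.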

Additional observations from a re-analysis of the deposited data

How the results depend on the processing

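Scaling moved the balance of the calls and the sign of some list medians, while single called genes mostly kept their direction. Among 303 called genes named or set aside for naming, 263 kept their call in every alternative at the 2-fold threshold that measured them. The 3-fold setting and the setting without a fold threshold are not part of this count. The authors' log2 ratios come without a test, so for single genes only their sign was compared, apart from the size given for Cpa1. For 1 gene the direction turned: Atp5if1 changed by 0.84 with the mean of its probe sets. Of single genes, 129 comparisons with an alternative lost a call, 67 of them at the 3-fold threshold, and 28 gained one, 19 of them with no fold threshold. As reported, 2122 genes were called, 1586 higher and 536 lower. Median centring gave 844 higher and 1283 lower, and 16 genes apart at 12 weeks. Quantile normalization also gave 16 genes apart, against 10 as reported. Housekeeping centring, chosen after seeing the data, gave 262 genes against 18 weeks, where 139 were reported. A pseudocount of 64 gave 980 genes higher, 2393 of 4326 probe sets, 809 of 1249 genes against 5 weeks, 535 of 870 against 8 weeks, 120 of 207 against 16 weeks and 84 against 18 weeks. A filter at a mean signal of 200 gave 1353 genes, 911 of them higher, 2139 probe sets, 766, 519, 117 and 75 genes against 5, 8, 16 and 18 weeks, and 5 genes apart, with fewer genes tested. With no fold threshold 6841 genes were called, 4425 higher and 2416 lower, 12593 probe sets, 5396, 4830, 2050 and 1597 genes against 5, 8, 16 and 18 weeks, and 161 genes apart. At 3-fold 855 genes were called, 661 higher and 194 lower, 1537 probe sets, 443, 260, 57 and 35 genes against 5, 8, 16 and 18 weeks, and 2 apart. Why the scalings and the pseudocount moved the counts was not tested. Leaving out 1 array at a time gave 2055 to 2152 genes, 1521 to 1616 higher and 534 to 544 lower, and 6 named genes lost their call without at least 1 array: Rb1, Lpin2, Cxcr2, Hemgn, Ndufa5 and Xcl1. The median of a list turned its sign for 18 lists after median centring, 7 with quantile normalization and 8 with housekeeping centring. Same-numbered arrays of the 2 groups showed no shared deviation (r = -0.038, 0.021 and 0.003 over probe sets). With so few arrays this cannot decide whether the numbers pair them. A fit with the replicate number as a block gave 2132 genes, 1593 higher and 539 lower, and changed no call of a named gene. Signals are limited at the dim end, where no detection calls were given.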

Other observations

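Clock genes differed in both directions between the groups. Of 17 measured clock genes 6 were higher and 4 lower at 12 weeks as deposited, and 3 were higher and 5 lower after median centring. As deposited the shares were 35.3% higher and 23.5% lower, beside 11.4% and 3.86% of all genes. Dbp, an output factor of the clock, had 2313, 2243 and 2158 at 12 weeks, against 385, 580.4 and 553 in normal liver (2.13 ± 0.14), and Per3, a repressor of the clock, had 360.4, 248 and 307 at 12 weeks, against 12.4, 68.7 and 12.4 in normal liver (2.96 ± 0.34). The other probe set of Per3 was dim and was not called (0.21). Bhlhe41, another repressor, changed by 2.87 ± 0.19. The activator genes Bmal1 (-1.23 ± 0.17) and Npas2 (-1.16 ± 0.12) were lower, as was Nfil3 (-1.22 ± 0.086), which opposes Dbp. The repressor gene Nr1d1 was higher (1.27 ± 0.13) as deposited and under 2-fold after median centring (0.88). The time of day of sampling was not given in the sources used here, and its part was not tested.

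Some members of calcium-binding, cytoskeletal, stress and junction families were higher at 12 weeks. Of 23 annexin and S100 genes 9 rose as deposited, and 7 rose and 3 fell after centring. Anxa2, an annexin of the inner cell membrane, had 5663, 5468 and 5652 at 12 weeks, against 649, 454 and 651 in normal liver (3.24 ± 0.12), S100a11 changed by 2.91 ± 0.081 and Anxa7 by 2.78 ± 0.11. Of 47 tubulin and actin cytoskeleton genes 15 rose as deposited and 10 after centring. Among 28 heat shock and metal response genes 4 rose as deposited, and 3 rose and 3 fell after centring, with Cryab, a small chaperone, at 1538, 1362 and 1418 at 12 weeks, against 115, 103 and 137 in normal liver (3.45 ± 0.17) and the hypoxia-induced Egln3 (2.49 ± 0.13) and Ndrg1 (2.16 ± 0.099). The share of these that rose as deposited, 14.3%, was near the 11.4% of all genes. Of 56 claudin and junction genes 7 rose and 2 fell as deposited, and 6 rose and 6 fell after centring. These shares, 12.5% and 3.57% as deposited, were near those of all genes (11.4% and 3.86%). Cldn8, a claudin of kidney and gut, rose (3.23 ± 0.32), and Gjb1, the main gap junction protein of hepatocytes, fell to 4939.9, 4727 and 4899 at 12 weeks, against 13072, 12824 and 12937 in normal liver (-1.41 ± 0.049).

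Solute carriers as a whole had 24 of 270 genes higher and 28 lower as deposited, and 12 higher and 48 lower after centring. As deposited 8.89% were higher, beside 11.4% of all genes, and 10.4% lower, beside 3.86%. After centring 6.07% of all genes were higher and 9.23% lower. Slc15a1, the peptide carrier of the gut, rose (3.10 ± 0.20) to 275, 269 and 212 at 12 weeks, against 7.10, 17.5 and 22.6 in normal liver. Cytosolic ribosomal proteins had none of 75 genes called as deposited, since their changes, from -0.82 to 0.69, did not reach 2-fold. At an unadjusted limma p under 0.05, 29 of these were higher and 10 lower. The respiratory chain had 3 of 85 genes lower as deposited (3.53%, near the 3.86% of all genes) and 14 after centring, with a median of -0.37 as deposited. The largest fall of the list, -1.86, was that of Atp5if1, whose 3 other probe sets rose. In that list 66 genes were lower and 3 higher at an unadjusted limma p under 0.05. Probe sets that name no gene in the workbook were called higher in 1163 of 11134 cases (10.4%) and lower in 230 (2.07%).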
